A study of Rattus norvegicus with 2 samples.

Results

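The immediate-early genes described here are 10 genes: the transcription factor genes Fos, Fosb, Jun, Junb, Egr1, Egr2, Egr3, Nr4a1 and Nr4a3, and the phosphatase gene Dusp1. They were found by their symbol in the annotation of a Clariom S rat array, on which a transcript cluster, a set of short probes for 1 gene, gives 1 intensity. Each of the 10 genes had 1 transcript cluster, out of 23188 on the array, and all 10 passed without any filter on low values. The arrays held thymus RNA of a male rat given 20 mg/kg cocaine i.v. daily for 7 days, and of a male control rat whose label reads No Stimulation. By the methods, the rats were Sprague-Dawley males of 8 weeks, the control received saline, and tissue was taken 1 day after the last dose. There was 1 array per group, so every value below rests on 1 rat, no difference has a replicate check and no test was possible. Precision is limited by this number of arrays.

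Immediate-early genes are switched on within minutes of a stimulus, without new protein synthesis, by kinase cascades that end on factors already present in the nucleus, such as SRF and CREB. Fos and Jun proteins pair to form the AP-1 factor, Egr proteins are zinc finger factors, and Nr4a proteins are orphan nuclear receptors. In thymocytes, Egr and Nr4a genes are known as early targets of T cell receptor signaling, through positive and negative selection. Dusp1 encodes a phosphatase that switches off MAP kinases, and so belongs to the feedback on the same cascades.

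The promoters of 5 members are shown for the sites through which SRF and CREB act. Jun, which differed most after quantile normalization, is not among them. Of the 10 genes, 6 (Fosb, Junb, Egr1, Egr2, Nr4a1 and Dusp1) were matched in the promoter table of RefSeq (assembly GRCr8), and Fos, Jun, Egr3 and Nr4a3 were not. Printed 5′ to 3′ are the 250 bases before the start of 5 of these genes, with matches to the CArG box (the core of the serum response element) and to the half-site TGACG of the cAMP response element (CRE) in capitals, on either strand, so that CGTCA is a half-site read on the other strand.
Egr1, chr18:26736828-26737077, plus strand: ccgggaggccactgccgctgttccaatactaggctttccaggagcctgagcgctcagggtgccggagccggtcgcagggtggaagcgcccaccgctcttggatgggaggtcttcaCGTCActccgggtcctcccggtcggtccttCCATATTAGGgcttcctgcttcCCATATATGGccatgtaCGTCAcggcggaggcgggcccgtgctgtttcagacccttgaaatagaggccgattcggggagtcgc
Egr2, chr20:21054442-21054691, minus strand: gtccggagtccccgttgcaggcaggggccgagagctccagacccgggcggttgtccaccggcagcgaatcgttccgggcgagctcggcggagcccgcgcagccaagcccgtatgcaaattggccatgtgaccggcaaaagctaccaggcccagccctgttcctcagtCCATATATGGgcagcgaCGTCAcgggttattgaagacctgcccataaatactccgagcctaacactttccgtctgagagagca
Dusp1, chr10:17184603-17184852, plus strand: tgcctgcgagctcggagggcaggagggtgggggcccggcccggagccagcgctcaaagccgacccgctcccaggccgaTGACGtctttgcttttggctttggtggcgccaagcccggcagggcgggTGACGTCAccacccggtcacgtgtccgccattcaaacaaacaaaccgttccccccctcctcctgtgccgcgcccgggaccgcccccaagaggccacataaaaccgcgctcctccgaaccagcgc
Nr4a1, chr7:134259888-134260137, plus strand: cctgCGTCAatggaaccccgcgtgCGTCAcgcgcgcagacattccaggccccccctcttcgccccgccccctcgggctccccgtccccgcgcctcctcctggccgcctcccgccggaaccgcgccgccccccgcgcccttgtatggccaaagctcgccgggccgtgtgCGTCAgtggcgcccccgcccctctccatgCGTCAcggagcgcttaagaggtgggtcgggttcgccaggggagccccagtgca
Junb, chr19:40080876-40081125, plus strand: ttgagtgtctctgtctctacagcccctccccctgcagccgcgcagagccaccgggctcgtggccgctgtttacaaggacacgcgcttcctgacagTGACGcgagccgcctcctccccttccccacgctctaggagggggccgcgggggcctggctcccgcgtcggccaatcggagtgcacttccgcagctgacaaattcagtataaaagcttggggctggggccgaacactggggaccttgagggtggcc

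Each promoter in the table ran from 250 bases before to 50 after the start. Of the 6 members searched, Egr1 and Egr2 had CArG boxes, a motif held by 1.64% of the 33469 promoters. Egr1 had 2 of them and Egr2 had 1, and the box CCATATATGG lay at the same place in both, from 83 to 74 bases before the start, followed by a CRE half-site from 66 to 62 bases before it. Dusp1 held the full palindrome TGACGTCA, which contains overlapping half-sites on both strands and is found in 1.83% of all promoters. Nr4a1 had 4 CRE half-sites and a match to the Egr motif GCGGGGGCG, found in 2.73% of promoters. Junb had 1 half-site, and Fosb had none of these sites. A CRE half-site alone was common, in 21.2% of promoters. These are matches of letters in a window and not measured binding sites.

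**Figure D1:**
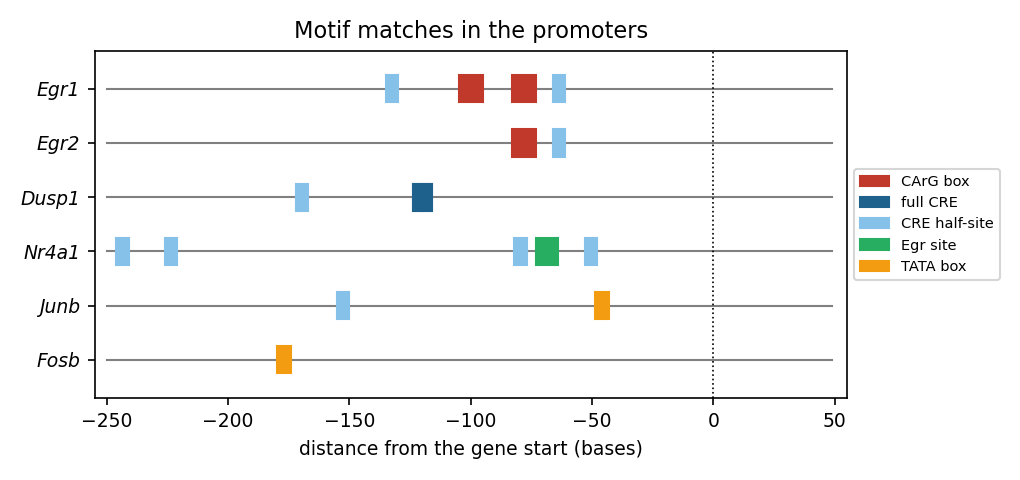
Motif matches on either strand in the promoters of 6 immediate-early genes, by distance from the gene start in bases (0 is the first transcribed base), each box being 1 match drawn to scale. Egr1 and Egr2 share a CArG box and a CRE half-site at the same distances, from 83 to 74 and from 66 to 62 bases before the start.

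Both arrays carried thymus signals. Rag1 and Dntt, genes of T cell receptor rearrangement, had log2 levels of 18.87 and 18.30 on each array, at percentiles 99.91 and 99.87 of all transcript clusters, although the labels' note on RNA extraction names spleen. These levels are equal because quantile normalization gives equal ranks the same value. As deposited, Rag1 was 477935 with cocaine and 478122 in the control, and Dntt was 327110 with cocaine and 317064 in the control. The B cell genes Pax5 and Cd79b lay at percentiles 47.8 and 60.9 of the cocaine array. The median difference, cocaine minus control on the log2 scale, was 0.01 over all transcript clusters, and 0.02 over 7 measured spleen markers, of which none was past 1.5-fold. The spleen markers ran from -0.45 (Vcam1) to 0.33 (Cr2), and 3 of them held the same deposited value on both arrays. A difference between the arrays cannot show whether spleen RNA was present on both. Among 10 lists of cell type markers, those of adipocytes (6 measured) and of erythroid cells (4 measured) had the largest shifts of the median, -0.33 and -0.40, with mixed members. Of the adipocyte markers, Adipoq, Fabp4 and Pparg were lower by more than 1.5-fold, while Cidec, Lep and Lipe had differences of 0.29, 0.04 and 0.01, and their summed intensity, most of it from Fabp4, was 4084 with cocaine and 8534 in the control. Of the erythroid markers, Hba-a1 and Slc4a1 were lower by as much, Alas2 had a difference of 0.54 and Hbb one of -0.04, and their summed intensity was 2748 with cocaine and 4360 in the control. Macrophage and dendritic cell markers (9 measured, 5 higher and 4 lower by sign) had a median of 0.12, but their summed intensity was 37316 with cocaine and 47129 in the control. The brightest of them, Lyz2, had a difference of -0.40, and Csf1r was higher by more than 1.5-fold. Cortical thymocyte markers (9 measured, none past 1.5-fold) had a median of -0.03. Of these markers, Pax5, Pparg, Cidec, Lep, Lipe, Slc4a1, Alas2 and Csf1r lay on both arrays within the range of the background rows described below. So did the spleen markers Tlx1, Nkx2-5, Madcam1 and Hmox1. The part of these cells in the values of the immediate-early genes was not tested, and in bulk RNA fewer cells of a type and less RNA per cell cannot be told apart.

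The immediate-early genes differed widely in brightness. Egr1 lay at percentile 97.4 of all transcript clusters with cocaine and 97.8 in the control, and Nr4a1 at 85.4 with cocaine and 83.9 in the control. Nr4a3 (73.6 and 73.4), Dusp1 (73.6 and 69.5), Egr2 (65.0 and 66.1) and Junb (60.2 and 57.5) were intermediate, with the cocaine array given first. Fosb (40.2 and 39.4), Jun (37.8 and 27.1), Egr3 (36.5 and 30.2) and Fos (25.2 and 20.2) were dim. Probe sets differ in how strongly they bind, so these percentiles place each gene on the array and do not rank the transcripts against each other.

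The array has 23 background rows, whose deposited intensities ran from 8.75 to 177 and were the same on both arrays. Egr1, Nr4a1, Nr4a3, Dusp1 and Egr2 were brighter than every background row on both arrays, as were 41.3% of all transcript clusters. The array also has 1153 negative control rows, with median deposited intensities of 169 with cocaine and 167 in the control. Dusp1 was brighter than 80.7% of these rows with cocaine and 72.5% in the control. The shares, cocaine first, were 66.7% and 67.1% for Egr2, 80.7% and 78.7% for Nr4a3, 92.8% and 91.8% for Nr4a1, and 98.4% and 98.5% for Egr1. By the negative control rows, detection of Dusp1, Egr2 and Nr4a3 is less clear than by the 23 background rows. Fos, Jun, Fosb and Egr3 lay within the range of the background rows on both arrays, and Junb did so in the control only. For these dim members the intensities do not show that the transcript was detected. The same holds for the dim related genes named below, namely Fosl1, Fosl2, Egr4, Nr4a2, Nab1, Dusp5, Dusp8, Dusp9, Jdp2, Mafg, Ccn2, Gadd45g, Crtc1 and Mapk7, which also lay within that range on both arrays.

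**Figure D2:**
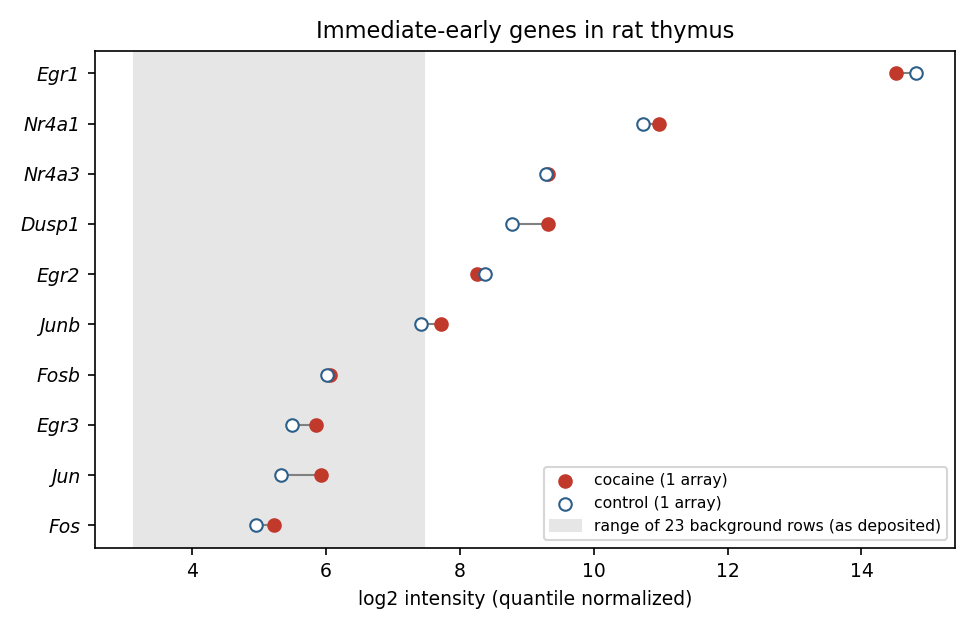
Log2 intensity after quantile normalization (horizontal axis) of the 10 immediate-early genes, 1 filled point for the cocaine array and 1 open point for the control array, with the range of the 23 background rows shaded. Jun and Dusp1 show the widest gaps, and Fos, Jun, Egr3 and Fosb lie within the shaded range on both arrays.

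Of the AP-1 genes, Jun differed most. The intensity of Jun as deposited was 59.9 in the cocaine thymus and 40.6 in the control thymus, and its log2 level after quantile normalization was 5.92 with cocaine and 5.32 in the control. It was thus 1.51-fold higher with cocaine, a log2 difference of 0.60. Among the 1000 transcript clusters of nearest mean level, this difference lay at percentile 98.0, just above their central 95%, which ended at 0.56. Both intensities of Jun were within the range of the background rows. On the values as deposited the difference was 0.56, below 1.5-fold.

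Junb, which encodes a Jun protein that can oppose Jun at some promoters, had an intensity of 214 with cocaine and 171 in the control. Its log2 level was 7.73 with cocaine and 7.43 in the control, a difference of 0.30, at percentile 88.3 of transcript clusters of like level. Jund, the third Jun gene, was brighter, at 11.36 with cocaine and 10.87 in the control, a difference of 0.50. All 3 Jun genes were higher with cocaine under each of the 6 scalings tried, and Junb and Jund stayed within 1.5-fold under each of them.

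The Fos genes were dim on both arrays. Fos had an intensity of 36.7 with cocaine and 31.4 in the control, and a log2 level of 5.22 with cocaine and 4.95 in the control, a difference of 0.26 at percentile 90.4 of transcript clusters of like level. Fosb held exactly the same deposited intensity, 65.8, on both arrays, as did 27.2% of all transcript clusters, and its log2 difference of 0.05 was made by the normalization alone. Of the remaining Fos genes, Fosl1 was lower, at 5.45 with cocaine and 5.74 in the control, at percentile 12.3, while Fosl2 was higher by 0.13 on the log2 scale, at percentile 80.7. No Fos gene was past 1.5-fold.

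Egr1 was the brightest member and the one with the most negative difference. Its intensity was 23468 with cocaine and 28708 in the control, and its log2 level was 14.51 with cocaine and 14.81 in the control. It was 1.23-fold lower with cocaine, a log2 difference of -0.30 at percentile 6.8 of the transcript clusters of like level, which is inside their central 95%. Egr2, a factor with roles in thymocyte selection, had an intensity of 311 with cocaine and 328 in the control, and a log2 level of 8.26 with cocaine and 8.38 in the control. Its difference of -0.13 was larger in size than that of 52.6% of transcript clusters of like level. Egr1 and Egr2 were thus both lower with cocaine, within 1.5-fold, under each of the 6 scalings.

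Egr3 lay on the other side of 0. It had an intensity of 56.7 with cocaine and 45.6 in the control, and a log2 level of 5.85 with cocaine and 5.49 in the control, a difference of 0.36 at percentile 92.3 of transcript clusters of like level. Its intensities were in the range of the background rows. Egr4, the remaining family member, held the same deposited value on both arrays. Nab1 and Nab2, corepressors that bind Egr proteins, were within 1.5-fold. Nab1 was 6.55 with cocaine and 6.64 in the control, and Nab2 was 10.40 with cocaine and 10.41 in the control, on the log2 scale.

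Of the orphan receptors, Nr4a1, which encodes Nur77, had an intensity of 2050 with cocaine and 1669 in the control. Its log2 level was 10.98 with cocaine and 10.74 in the control, 1.18-fold higher, and the difference of 0.24 lay at percentile 87.4 of transcript clusters of like level. Nr4a3 had an intensity of 651 with cocaine and 610 in the control, and a log2 level of 9.31 with cocaine and 9.28 in the control. Its difference of 0.03 was the smallest in size of the 10 after quantile normalization. Nr4a2 was lower, at 7.02 with cocaine and 7.24 in the control. The Nr4a genes thus did not share a direction, and none was past 1.5-fold.

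Dusp1 had the largest difference among the members that were brighter than every background row. Its intensity was 651 with cocaine and 426 in the control, and its log2 level was 9.31 with cocaine and 8.77 in the control. It was 1.45-fold higher after quantile normalization, a log2 difference of 0.54 at percentile 96.7 of transcript clusters of like level. On the values as deposited the difference was 0.61, past 1.5-fold, and with each array centred on its median it was 0.63. Both differences of Dusp1, after quantile normalization and as deposited, were inside the central 95% of transcript clusters of like level, whose upper ends were 0.59 and 0.67. Other phosphatases of the family were measured for 9 genes, none of them past 1.5-fold in either direction, with a median difference of 0.03. Among them, Dusp8 (5.72 with cocaine and 5.21 in the control), Dusp7 (8.10 and 7.74) and Dusp5 (7.10 and 6.82) were nearest to Dusp1 in direction and size, and Dusp9 was 5.72 with cocaine and 5.89 in the control.

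**Figure D3:**
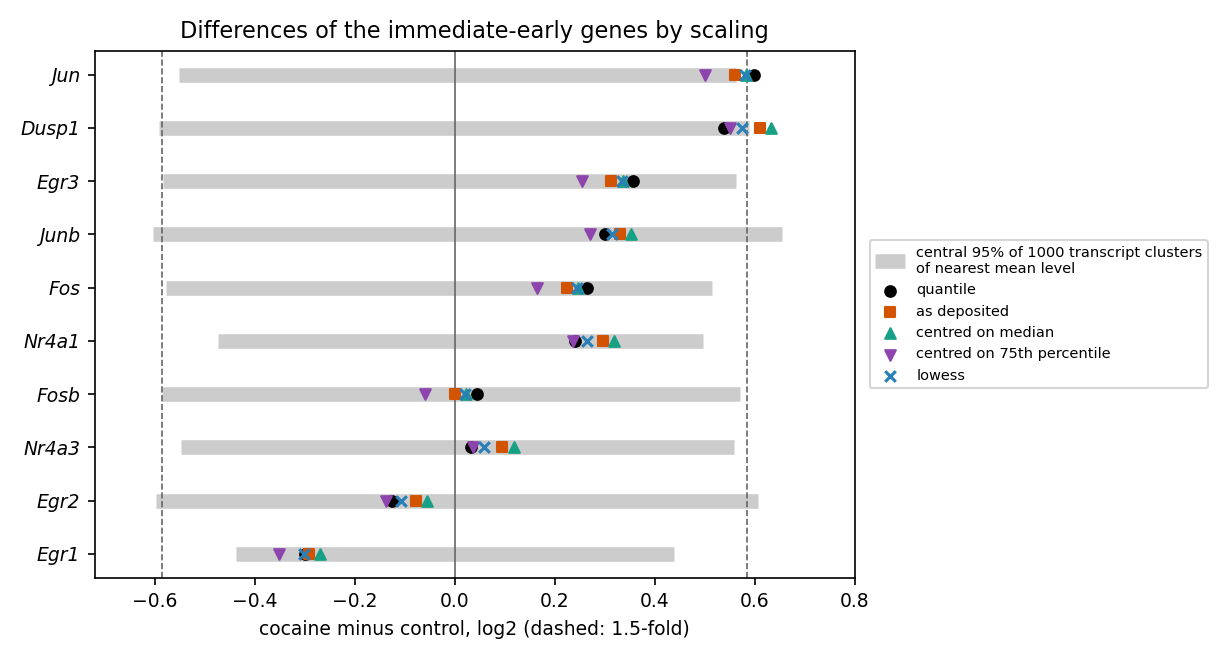
Cocaine minus control log2 difference (horizontal axis) of each of the 10 immediate-early genes under 5 scalings (symbols), with the central 95% of the 1000 transcript clusters of nearest mean level after quantile normalization as a grey bar and 1.5-fold as dashed lines. Jun and Dusp1 sit at the dashed line of 1.5-fold, on one side or the other by scaling, and Egr1 and Egr2 are left of 0 under each scaling shown.

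As a group, 1 of the 10 members (Jun) was past 1.5-fold on the higher side with cocaine and none on the lower side, against 1.98% of all transcript clusters that were higher and 2.29% that were lower. Which member passed depended on the scaling. It was Jun after quantile normalization and Dusp1 on the values as deposited or centred on the median, while neither passed after centring on the 75th percentile or after lowess. By sign, 8 members were higher and 2 lower after quantile normalization, against 52.6% of all transcript clusters higher. On the deposited values 7 were higher, 2 lower and 1 the same. Of all transcript clusters, 37.0% were higher and 27.2% the same on these values, and the rest were lower. The median difference of the 10 members was 0.25, against 0.01 over all transcript clusters. This median rested partly on dim members. Over the 5 members brighter than every background row it was 0.032, against -0.03 over the 9575 transcript clusters that were as bright by the same limit. On the deposited values these medians were 0.10 and 0.

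**Figure D4:**
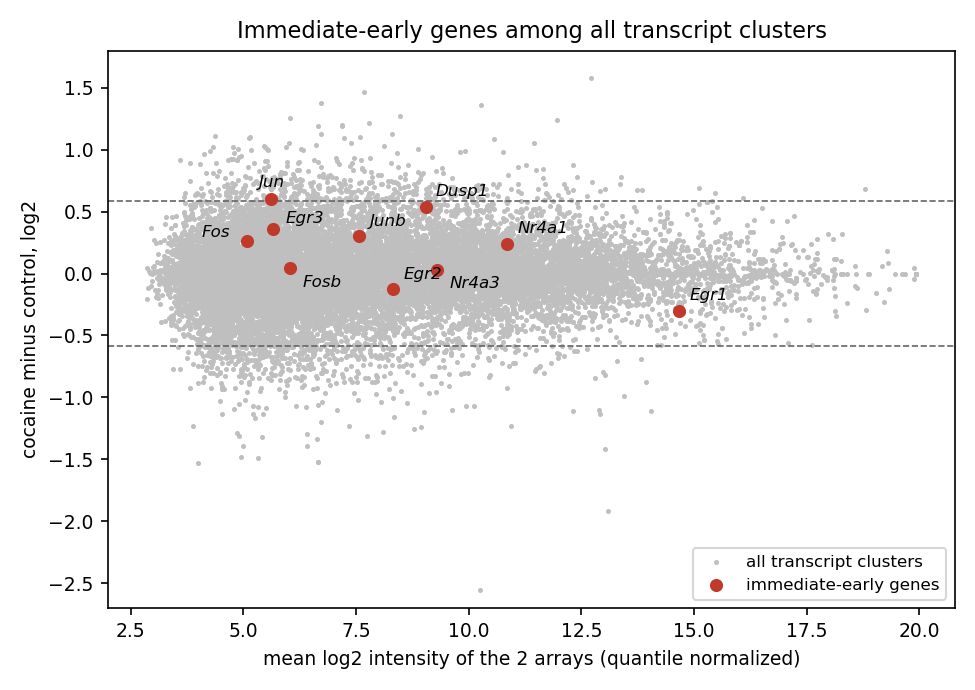
Cocaine minus control log2 difference (vertical axis) against mean log2 intensity (horizontal axis) for all 23188 transcript clusters in grey and the 10 immediate-early genes in red, with 1.5-fold as dashed lines. The members lie within the cloud of all transcript clusters, Jun and Dusp1 in its upper part, at percentiles 98.2 and 97.4 of all differences.

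Other immediate-early genes had values on both sides of 0. Of 50 listed, 46 were measured, with 1 higher and 1 lower by more than 1.5-fold and a median difference of -0.0041. The higher one was Socs3, an inhibitor of cytokine signaling, at 9.49 with cocaine and 8.89 in the control. The lower one was Gadd45g, a stress response gene named here because it was the only lower one, a very dim row at 3.52 with cocaine and 4.25 in the control. Klf10, a zinc finger gene, was 8.15 with cocaine and 8.47 in the control, and the kinase gene Sgk1 was 13.06 with cocaine and 12.77 in the control. Ccn2, a matricellular protein gene, was 5.77 with cocaine and 5.43 in the control, and the small GTPase gene Rhob was 7.64 with cocaine and 7.37 in the control.

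Of 15 measured bZIP factors that pair or compete with Fos and Jun, 1 was past 1.5-fold, on the higher side, with a median difference of 0.03 over the list. The higher one was Jdp2, a Jun dimerization partner that represses AP-1, at 6.51 with cocaine and 5.73 in the control. Its intensities as deposited, 89.9 with cocaine and 54.1 in the control, were within the range of the background rows, so its difference of 0.78 is that of a row not shown to be above background. Atf4, a factor of the integrated stress response, was 14.03 with cocaine and 13.70 in the control, Batf was 8.48 with cocaine and 8.21 in the control, and Atf1 was 12.88 with cocaine and 12.65 in the control. Mafg was 5.64 with cocaine and 5.47 in the control.

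The regulators upstream of the immediate-early genes lay within 1.5-fold. Among 11 measured transcription factors (median -0.0059), the CREB coactivator gene Crtc1 was 6.65 with cocaine and 6.36 in the control, and Creb1 was 12.50 with cocaine and 12.73 in the control. Elk4, a partner of SRF, was 12.76 with cocaine and 12.56 in the control. Crem was 9.85 with cocaine and 9.69 in the control, and Elk3 was 8.48 with cocaine and 8.37 in the control. Among 16 measured kinases and GTPases (median -0.03, with 10 of them holding the same deposited value on both arrays), Camk4, a calcium-dependent kinase of T cells, was 15.12 with cocaine and 15.37 in the control. Mapk7 was 7.01 with cocaine and 6.82 in the control, Nras was 13.59 with cocaine and 13.72 in the control, and Mapk8 was 10.21 with cocaine and 10.12 in the control. Hras held the same deposited value on both arrays.

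Genes that T cell receptor signaling induces in thymocytes, where Egr and Nr4a genes are also induced, had a median difference of -0.05 over 17 measured genes, with 1 past 1.5-fold, on the higher side. This was Id2, an inhibitor of E protein transcription factors, at 10.73 with cocaine and 10.05 in the control. Id3, a related inhibitor and a known target of Egr factors, was 8.91 with cocaine and 8.52 in the control, within 1.5-fold. Bcl2l11, which encodes the pro-apoptotic protein Bim, was 9.40 with cocaine and 9.82 in the control. Tnfrsf4 was 8.53 with cocaine and 8.17 in the control, and Pdcd1 was 7.95 with cocaine and 8.22 in the control. These genes thus held values on both sides of 0. So did the Egr and Nr4a genes, but the higher Egr3 and the lower Nr4a2 lay within the range of the background rows. The median of the genes induced by T cell receptor signaling was 0 on the deposited values and 0.02 with each array centred on its median. Over the 6 scalings the medians of the related lists stayed between -0.06 and 0.05, on both sides of 0, except that of the Egr corepressors, which ran from -0.10 to -0.02.

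**Figure D5:**
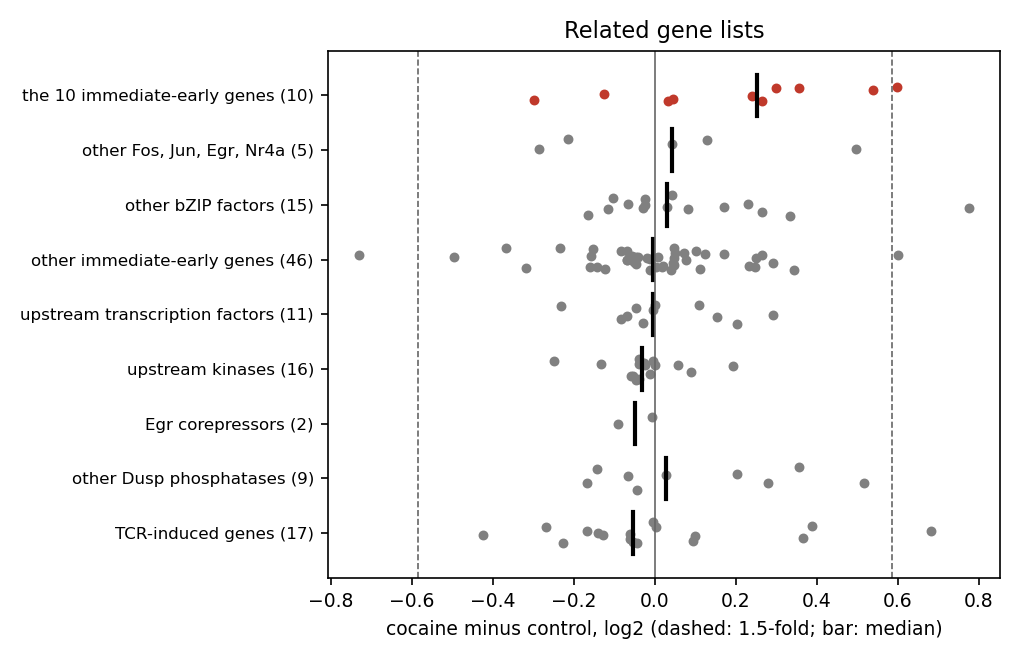
Cocaine minus control log2 difference (horizontal axis) of each gene (points) in the 10 immediate-early genes and in 8 related lists, with the number measured in parentheses, the median as a black bar and 1.5-fold as dashed lines. After quantile normalization the median of the 10 genes is 0.25, and those of the other lists lie between -0.05 and 0.04.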

How the data were processed

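RNA from the thymus of 1 cocaine-treated and 1 control rat was biotin-labelled and run on Clariom S arrays, and groups were taken from the sample titles. After analysis in the TAC software, the authors deposited a linear intensity value for each transcript cluster. The software version, background correction, normalization and genome build were not given in the sources used here. Coordinates are therefore printed for RefSeq promoters only.

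Of 24834 rows, 1646 control rows were set aside. Of the 23188 transcript clusters left, 15049 carried a single gene symbol and 8139 carried no symbol here. Gene numbers linked all 15049 to the RefSeq gene table. The brightest transcript cluster stood for a gene with several, which left 15037 genes. The linear values were quantile normalized and taken to log2, which changed no difference by more than 0.102. A fold divides the brighter value by the dimmer one, and the limit was 1.5-fold. Other scalings, fold limits and filters on low values are given in the closing section. Scaling steps were tested on simulated data.

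The 10 members, the gene lists, the motifs and the rule for named genes were chosen with earlier results of these data known. The rule named all members, the rest of their families, the Egr corepressors and, for each related list, up to 5 genes with the largest differences whose mean level reached the 25th percentile, and up to 3 for marker lists, with Rag1 and Dntt as a check of the tissue. Gadd45g, Slc4a1, Cidec, Lep, Lipe, Tlx1, Nkx2-5 and Madcam1 fall outside it. Motifs were searched on both strands. Besides those named in the report, these were TGACTCA (the reverse complement of TGAGTCA), GCGTGGGCG, AAAGGTCA and TATAAA. The planned comparison of protein sequences was not run. Python 3.11.15 was used, with statsmodels 0.14.6, matplotlib 3.10.9, pandas 2.3.3 and numpy 2.4.6.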

Additional observations from a re-analysis of the deposited data

How the results depend on the processing

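No paired analysis was possible because only 1 array stood for each group, and leaving out a replicate could not be done either. The median difference of the 10 members was 0.25 on the log2 scale, and 0.20 with each array centred on its 75th percentile. Over the 5 members brighter than every background row, a choice made after seeing the data, it was 0.032. The count of 1 member higher by more than 1.5-fold became 0 after centring on the 75th percentile, after lowess and at 2-fold. It was also 0 among genes of at least median brightness (Jun is dimmer) and over the 5 brighter members. At a looser limit, a log2 difference of 0.32, it became 3, against 8.22% of all transcript clusters past that limit on the higher side. No member was lower by more than 1.5-fold under any scaling. Over all transcript clusters, the 460 higher and 531 lower ones at 1.5-fold became 35 and 52 at 2-fold, 1905 and 2033 at the looser limit, and 244 and 227 among those of at least median brightness. Centring on the 75th percentile gave 344 higher and 793 lower. Quantile normalization with the control rows included again gave Jun as the member past 1.5-fold. The differences of Jun ran from 0.50 to 0.60 over the scalings and those of Dusp1 from 0.54 to 0.63, so the position of either gene relative to 1.5-fold was set by the scaling. Those of Fosb ran from -0.06 to 0.05, on both sides of 0. The other members kept their sign. Each member had 1 transcript cluster, so the mean over transcript clusters changed nothing.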

Other observations

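Across all measured genes with a promoter in the RefSeq table, 2.09% of 12435 were past 1.5-fold on the higher side with cocaine and 2.08% on the lower side. Of the 315 genes whose promoter holds the full CRE palindrome TGACGTCA, as that of Dusp1 does, 15 (4.76%) were higher and 5 (1.59%) were lower by as much, with a median difference of 0.01. Of the 3287 genes with a CRE half-site, 74 (2.25%) were higher and 55 (1.67%) were lower. Of the 497 genes with the Egr motif GCGGGGGCG, as in Nr4a1, 13 (2.62%) were higher and 4 (0.805%) were lower. Of the 106 genes with the other Egr motif, GCGTGGGCG, 1 (0.943%) was higher and 0 were lower. Of the 159 genes with a CArG box, as in Egr1 and Egr2, 1 (0.629%) was higher and 4 (2.52%) were lower, with a median of -0.03. Of the 501 genes with the AP-1 motif TGACTCA, 3 (0.599%) were higher and 11 (2.20%) were lower. These counts describe 2 arrays and were not tested.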
